A study of Penaeus vannamei with 11 samples.

Results

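The hemocyte transglutaminases of the Pacific white shrimp, *Penaeus vannamei*, are described here across hemocyte RNA-seq libraries of males and females with and without the bacterium *Vibrio parahaemolyticus*. A gene was taken as a member if the first entry of its description in the deposited table names a hemocyte protein-glutamine gamma-glutamyltransferase, the systematic name of a transglutaminase. This rule found 5 of the 18803 genes: LOC113823934, LOC113823945, LOC113823946, LOC113826241 and LOC113823455. No value was used to find them. The 11 libraries came from 4 groups: control females (n = 3), control males (n = 2, replicates 2 and 3), Vibrio females (n = 3) and Vibrio males (n = 3). All libraries, controls included, carry the same treatment label, "immune", and the groups differ in the agent (control or Vibrio parahaemolyticus) and in sex. Hemolymph was drawn into anticoagulant and the cells were spun down and lysed, per the labels' protocols. The labels call the source hemolymph and the cells hemocytes, and give no genotype, strain, age, dose or time of exposure. The sources used here do not say whether libraries of a group were separate animals, pools or repeats, so p-values measure only the spread between these samples.

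Transglutaminases are calcium-dependent enzymes that join a glutamine side chain of a protein to a lysine side chain of another. In crustaceans the enzyme is released by hemocytes, the circulating blood cells, and links molecules of a plasma clotting protein into a clot that closes wounds and traps bacteria. In crayfish, transglutaminase activity in the blood-forming tissue has also been tied to holding precursor cells in place, and the cytokine astakine to their release.

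The libraries held 39733829 to 53837438 counts each, and within groups no pair agreed within sampling noise (chi-square over its degrees of freedom between 118 and 536). Hemocyte markers were abundant in every library: penaeidin-3a-like (LOC113808997), an antimicrobial peptide of hemocytes, had 7223 to 18890 FPKM (fragments per kilobase of transcript, scaled to library depth). Markers of the hepatopancreas, the digestive gland, numbered 105, of which 4 were at 0 in every library. They comprise digestive enzymes and hemocyanins, and the most abundant was a hemocyanin (LOC113830072) with 2.47 to 309 FPKM. The summed level of all these markers was 464 to 1905 CPM (counts scaled to a common library size after TMM normalization) in control females, 1086 to 2971 in control males, 501 to 2393 in Vibrio females and 415 to 819 in Vibrio males. The 3 libraries highest in them were control male replicate 3, Vibrio female replicate 1 and Vibrio female replicate 3. Muscle markers summed to 1532 to 3306 CPM.

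Of the 5 genes, 3 stand next to each other on the scaffold named NW_020871047.1 in the table, all on the plus strand. LOC113823946 spans positions 31648 to 62860, LOC113823945 positions 66115 to 78582 and LOC113823934 positions 107795 to 132975. No other gene of the table lies between them, and the gaps are 3254 and 29212 bases. The table names no genome build. LOC113826241 is on scaffold NW_020871629.1 from 323289 to 332351, and LOC113823455 on scaffold NW_020870996.1 from 72126 to 84152, both on the minus strand. The table gives whole gene spans, so exons and UTRs are not distinguished here. The RefSeq gene table of assembly ASM4276789v1 lists 3 of the 5 identifiers. In it LOC113823946 and LOC113823934 are still direct neighbours, with 0 genes between them, while LOC113823945 and LOC113823455 are not listed.

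**Figure D1:**
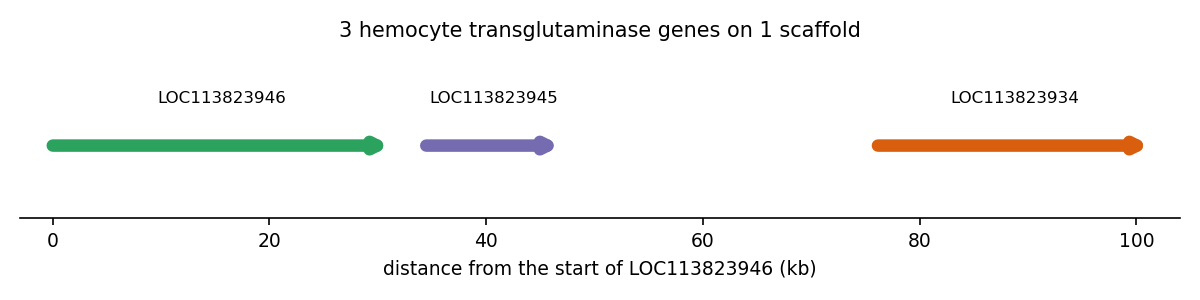
Positions of the 3 neighbouring transglutaminase genes, drawn to scale as arrows in the direction of transcription, with distance from the start of LOC113823946 in kb on the x axis. The gap before LOC113823934, 29212 bases, is wider than the gap of 3254 bases before LOC113823945.

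The 3 neighbours also differ in the length of their gene models. Count divided by FPKM, which is proportional to the length used by the authors, was 5.11 times larger for LOC113823934 and 4.81 times larger for LOC113823946 than for LOC113823945. LOC113823945 is therefore a short model, and LOC113823934 carries a low-quality flag in its name. LOC113823934 and LOC113823946 are annotated with keratinocyte proliferation and cell cycle terms rather than with transglutaminase activity, and LOC113823945 carries no such term. Because the genes are like-named neighbours and the counting rule for shared reads is not given in the sources used here, how their reads were divided is uncertain.

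The family held some of the most abundant transcripts of the hemocytes, and some that were near absent. By mean FPKM over the 11 libraries, LOC113823945 ranked 19 of 18803 genes with 3208 FPKM, LOC113823934 ranked 28 with 2625 FPKM and LOC113823946 ranked 179 with 670 FPKM. LOC113826241 had a mean of 1.97 FPKM and LOC113823455 of 0.072 FPKM. By FPKM the order of the neighbours was the same in each of the 11 libraries, LOC113823945 above LOC113823934 above LOC113823946, and it rests on the short length used for LOC113823945. By counts, which are not corrected for length, LOC113823934 was the highest of the 3 in every library, and LOC113823946 exceeded LOC113823945 in 4 libraries, for example with 194369 against 86376 counts in Vibrio female replicate 1. In bulk RNA, fewer cells of a type and less RNA per cell cannot be told apart. Together the 5 genes took 2.45 ± 0.895% of all counts in control females (SD, n = 3), 1.00 ± 0.328% in control males (n = 2), 1.42 ± 0.188% in Vibrio females (n = 3) and 1.32 ± 0.429% in Vibrio males (n = 3).

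**Figure D2:**
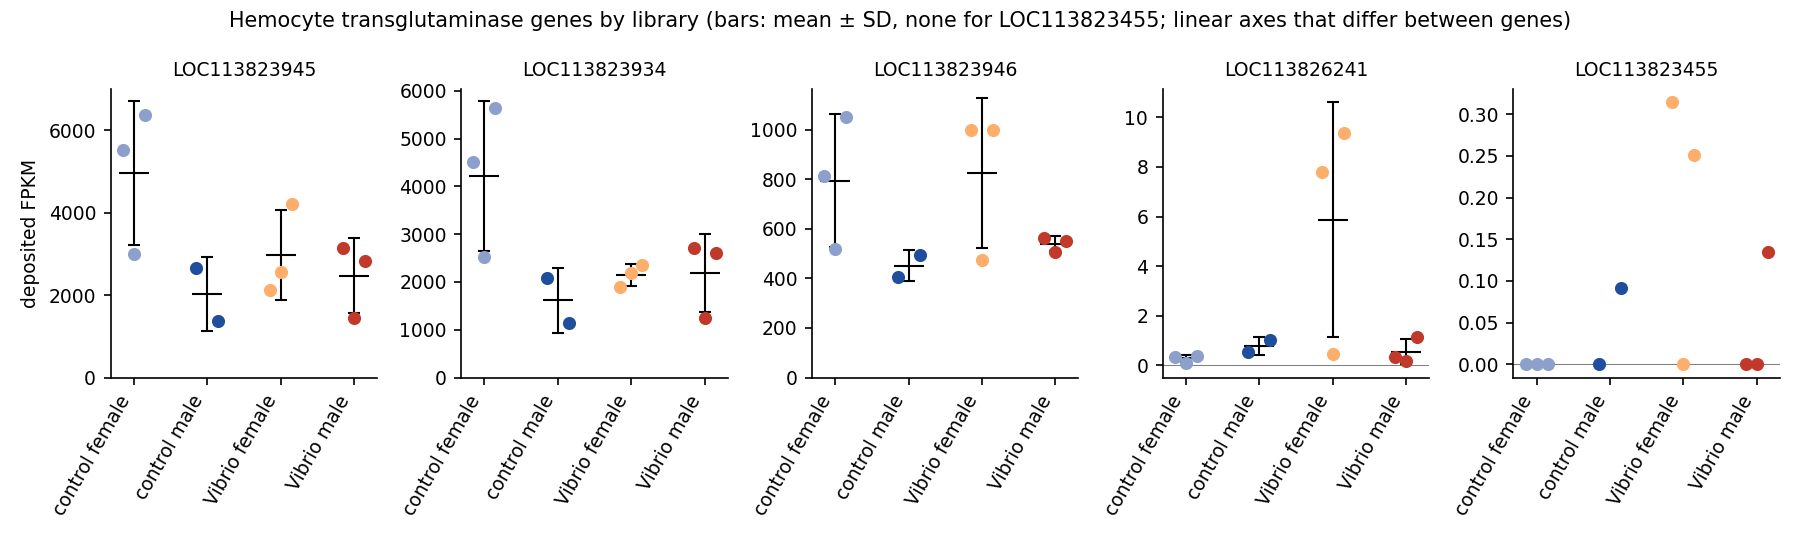
Deposited FPKM of the 5 genes in each library, 1 panel per gene with its own linear axis; points are libraries, and black bars are group means ± SD. Control females reached the highest values of LOC113823945 and LOC113823934, and LOC113826241 stands out in Vibrio females 1 and 3, at 7.78 and 9.36 FPKM. LOC113823455 has no bars.

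LOC113823934, the longest of the 3 neighbours by that quotient, was measured at 4502, 2519 and 5634 FPKM in control females 1 to 3. It was at 2091 and 1137 FPKM in control males 2 and 3. Vibrio females 1 to 3 had 1904, 2180 and 2363 FPKM, and Vibrio males 1 to 3 had 2705, 1236 and 2603 FPKM. Control females 1 and 3 were the high libraries, and the Vibrio females stayed just below the lowest control female, replicate 2. In males the groups overlapped. The edgeR log2 fold change of Vibrio against control was -1.01 with SE 0.42 in females (adjusted p = 0.986) and 0.28 with SE 0.47 in males (adjusted p = 0.945). In controls, males were lower than females by a log2 fold change of -1.28 with SE 0.48 (edgeR adjusted p = 0.756). These groups did not overlap in FPKM but did in CPM, with 9918 in control male replicate 2 and 9603 in control female replicate 2. With Vibrio the log2 fold change between the sexes was 0.01 with SE 0.41 (edgeR adjusted p = 1). Single libraries weighed on both differences: the one with Vibrio in females was -0.67 without control female replicate 3, and the one between the sexes in controls was -1.95 with replicate 2 of the control males left out and -0.80 with replicate 3 left out.

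LOC113823945, the short model between the others, had 5530, 3007 and 6373 FPKM in control females 1 to 3 and 2665 and 1383 FPKM in control males 2 and 3. Vibrio females 1 to 3 had 2136, 2560 and 4210 FPKM. Vibrio males 1 to 3 had 3151, 1447 and 2827 FPKM. Control females 1 and 3 were again the highest libraries. In CPM the groups overlapped in every comparison, in controls with 2474 in male replicate 2 and 2243 in female replicate 2. In FPKM, which carries no TMM scaling, both control males lay below all control females, for which no share of all genes was computed. Its log2 fold change with Vibrio was -0.79 with SE 0.44 in females (edgeR adjusted p = 0.986) and 0.13 with SE 0.49 in males (edgeR adjusted p = 0.972). Males against females gave -1.19 with SE 0.51 in controls (edgeR adjusted p = 0.756) and -0.27 with SE 0.43 with Vibrio (edgeR adjusted p = 1). The first of these was -1.90 with replicate 2 of the control males left out and -0.69 with replicate 3 left out.

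LOC113823946, the first of the 3 along the scaffold, had 814, 517 and 1052 FPKM in control females 1 to 3, and 406 and 495 FPKM in control males 2 and 3. Vibrio females 1 to 3 had 1000, 474 and 998 FPKM, and Vibrio males 1 to 3 had 564, 507 and 549 FPKM. Females ran over a range of about the same width in both agents, and all 5 male libraries lay between 406 and 564 FPKM. The log2 fold change with Vibrio was 0.00 with SE 0.33 in females (edgeR adjusted p = 1) and 0.16 with SE 0.37 in males (edgeR adjusted p = 0.959). Averaged over the agents, males were lower than females by a log2 fold change of -0.68 with SE 0.25 (edgeR adjusted p = 0.953). The same average was -0.64 with SE 0.31 for LOC113823934 and -0.73 with SE 0.33 for LOC113823945, each at an edgeR adjusted p of 0.953.

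LOC113826241, the only one of the 5 named "putative", was a low transcript that stood out in a pair of libraries. Its FPKM was 0.347, 0.111 and 0.385 in control females 1 to 3, and 0.519 and 1.04 in control males 2 and 3. In Vibrio females 1 to 3 it was 7.78, 0.465 and 9.36 FPKM, resting on 976, 58 and 1207 counts. Vibrio males 1 to 3 had 0.345, 0.173 and 1.14 FPKM. Vibrio females 1 and 3 were thus far above the other 9 libraries, whose highest was Vibrio male replicate 3, while Vibrio female replicate 2 lay just above the control females. The edgeR log2 fold change in females was 4.29 with SE 1.07 and ranked 20 of 14295 genes by p, at an adjusted p of 0.986. DESeq2 called the gene higher in Vibrio females, at a log2 fold change of 4.32 (SE 0.92, adjusted p = 0.00589).

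Whether DESeq2 called the gene changed when single libraries were left out. Its log2 fold change then stayed between 3.88 and 4.86, and its unadjusted DESeq2 p between 4.05e-10 and 0.000374. The adjusted p was 0.0551 without control female replicate 1 (unadjusted 2.73e-05) and 0.118 without Vibrio female replicate 1 (unadjusted 0.000176). It thus did not follow the gene's own p alone. DESeq2 assigned no adjusted p without Vibrio male replicate 1 or 3, and the adjusted p ran from 5.3e-06 to 0.0304 without each of the other 7 libraries. Both libraries in which LOC113826241 was high were also among the 3 highest in hepatopancreas markers, at 2393 and 2048 summed CPM. Control female replicate 2, at 1905 summed CPM of these markers, had the lowest LOC113826241 of all, and control male replicate 3, at 2971 summed CPM, had 1.04 FPKM. Without the 3 libraries highest in those markers, which leaves 1 Vibrio female, the DESeq2 log2 fold change was 0.79 (adjusted p = 0.773). The part of these markers in the result was not tested.

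In males LOC113826241 had a log2 fold change with Vibrio of -0.57 with SE 1.05 (edgeR adjusted p = 0.951). The difference between the male and the female effect was -4.86 with SE 1.45 (edgeR adjusted p = 0.74, DESeq2 adjusted p = 0.126), so a different response of the sexes did not pass the test. With Vibrio, males were lower than females by -3.37 with SE 1.02 (edgeR adjusted p = 1), with overlapping groups. In controls, both males lay above all 3 females, and the log2 fold change was 1.49 with SE 1.06 (edgeR adjusted p = 0.76).

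LOC113823455 was at the limit of detection. It had 0 counts in 7 libraries, which allows up to 3 counts or 0.0583 to 0.0755 CPM before TMM scaling in those libraries. Its counts were 13 in control male replicate 3, 45 and 37 in Vibrio females 1 and 3, and 20 in Vibrio male replicate 3. In FPKM these were 0.0918, 0.314, 0.252 and 0.134. The 4 libraries with counts were the same 4 that were highest in LOC113826241. Its scaffold differs from that of LOC113826241, and both carry the annotation of transglutaminase activity and peptide cross-linking. Of a library's counts from 1 to 20, 61.3 to 68.2% were even, so counts may not be independent fragments, and the limit covers counting error only.

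**Figure D3:**
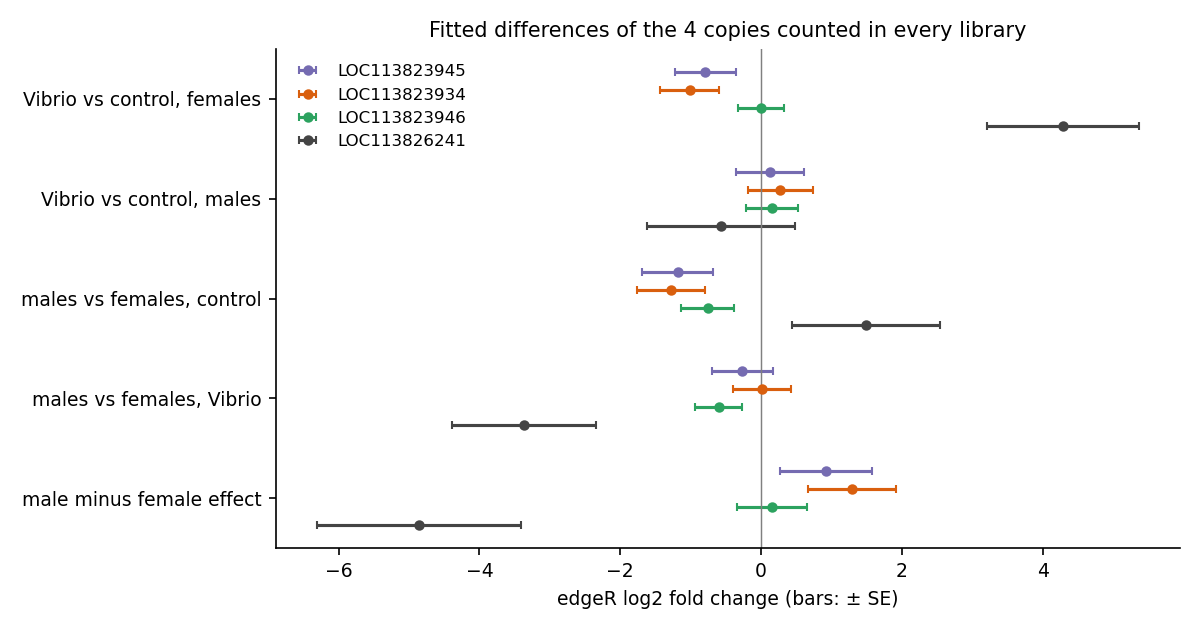
Fitted edgeR log2 fold changes with bars of ± SE for the 4 genes counted in every library, in 5 comparisons. LOC113826241 lies farthest from 0, at 4.29 for Vibrio against control in females and -4.86 for the difference between the effects, and has the widest bars.

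Across the table, 5 of 5 members passed the filter on low counts, LOC113823455 through 4 libraries alone, and 0 of 5 were called by edgeR at an adjusted p under 0.05 in any of 7 contrasts. The share called among all 14295 genes was also 0.0% in each, so this count cannot compare the members with other genes. At an unadjusted p under 0.05 edgeR had 579 genes for Vibrio in females (4.05%), of which 3 were members. LOC113823934 was lower with Vibrio, and LOC113826241 and LOC113823455 were higher. LOC113823455 had 0 counts in all control females (log2 fold change 7.7 with SE 3.3, edgeR unadjusted p = 0.0459). It passed the filter only through the 4 libraries where it had counts, so its place among these 3 gives no support. Against a group at 0, its log2 fold change does not measure a size. For Vibrio in males there were 345 genes (2.41%), of which 0 were members. The difference between the male and female effects had 800 genes (5.6%) and 1 member. Males against females had 698 genes (4.88%) and 2 members in controls, and 486 genes (3.4%) and 1 member with Vibrio. The averaged effects had 289 genes for Vibrio (2.02%) and 476 for sex (3.33%), with 1 member each. DESeq2 called 21 genes for Vibrio in females (0.147%), LOC113826241 being the only member. It called no member for Vibrio in males (0.0769% of genes called), the difference of the effects (0.196%), sex in controls (0.0769%) and with Vibrio (0.0909%), or the averaged effects of Vibrio (0.042%) and sex (0.07%). Here overlap of groups was judged on CPM. Groups that did not overlap were seen in females for LOC113823934, lower with Vibrio (background 3.9% of genes), and for LOC113826241, higher with Vibrio (background 2.48%). In males LOC113823946 was higher with Vibrio without overlap (background 13.3%, and 11.5% for lower). In controls LOC113826241 was higher in males without overlap (background 9.54%, and 11.8% for lower). In FPKM, though not in CPM, LOC113823934, LOC113823945 and LOC113823946 were lower in control males without overlap. The share of all genes was not computed on FPKM, which carries no TMM scaling, so nothing is read from that separation. With Vibrio no member separated the sexes, against 4.82% of genes higher and 2.95% lower in males.

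**Figure D4:**
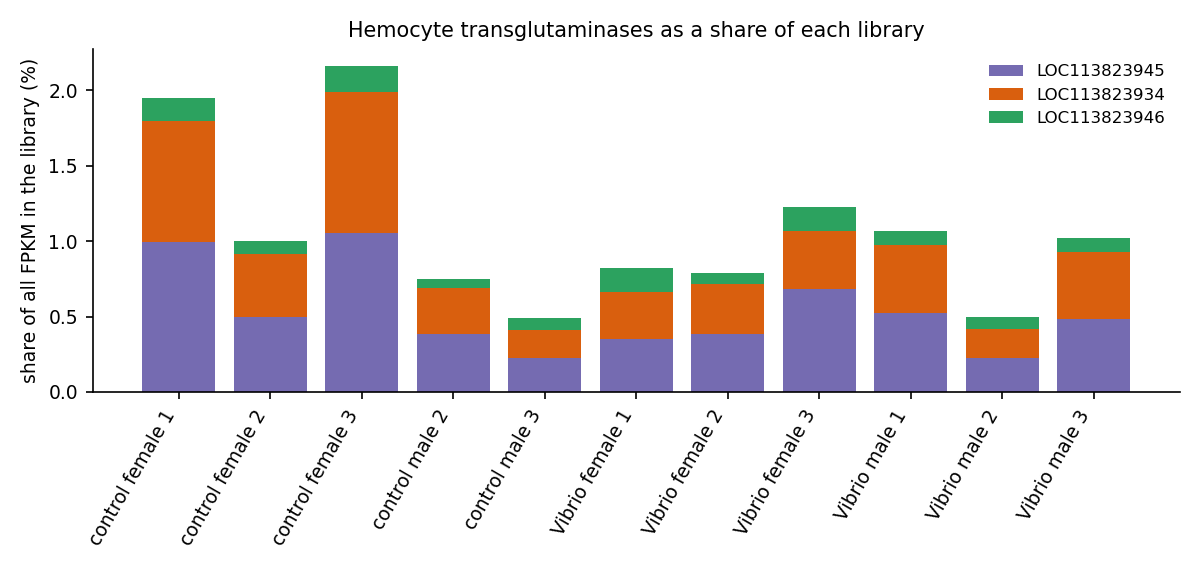
Share of all FPKM of a library taken by the 3 abundant transglutaminases, stacked by gene; the other 2 genes are too low to be drawn. Control females 1 and 3 reach 1.95 and 2.16%, and the other 9 libraries lie between 0.491 and 1.23%.

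The summed share of the family varied within groups as well as between them. Control females 1 and 3 gave 2.62 and 3.24% of counts, while control female replicate 2 gave 1.48%, inside the range of 0.772 to 1.63% of the other 8 libraries. Both control males, at 1.24 and 0.772%, lay below all control females. The 30 hemocyte markers, none of them at 0 in every library, summed to 27376 and 33176 CPM in control females 1 and 3 and to 14933 CPM in control female replicate 2, the lowest of all libraries. Their sum was 17980 to 18840 CPM in control males, 16680 to 17620 in Vibrio females and 20960 to 26760 in Vibrio males, and their part in the family's share was not tested. Vibrio against control, averaged over the sexes, differed by -0.354 percentage points (exact two-sided permutation test within sex, p = 0.37). Males against females, averaged over the agents, differed by -0.769 percentage points (exact two-sided permutation test within agent, p = 0.125). Each of these tests had 200 arrangements, which limits how small its p can be.

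The copies varied together to different degrees. On log2 CPM over the 11 libraries, LOC113823934 with LOC113823945 had a Pearson r of 0.96 (permutation p = 5e-05, adjusted over 3 relations 0.00015) and a Spearman rho of 0.83 (permutation p = 0.00278, adjusted 0.00834). Without the 2 libraries farthest from the median, control female replicate 3 and control male replicate 3, r was 0.92. LOC113823934 with LOC113823946 had an r of 0.54 (permutation p = 0.0893, adjusted 0.0893) and a rho of 0.31 (permutation p = 0.359, adjusted 0.359). Without the same libraries r was 0.15, so that relation rests on them. LOC113823945 with LOC113823946 had an r of 0.60 (permutation p = 0.055, adjusted 0.0825) and a rho of 0.43 (permutation p = 0.195, adjusted 0.292), and r was 0.31 without them. Libraries were permuted freely across the 4 groups, so these p-values do not separate group differences from variation within groups. The part of reads shared between like copies in these correlations was not tested.

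The ratio of LOC113823934 to LOC113823945 in FPKM lay between 0.785 and 0.921 in 10 libraries and was 0.561 in Vibrio female replicate 3. In log2 the ratio differed by -0.02 between Vibrio and control (exact two-sided permutation test within sex, p = 0.985) and by 0.07 between males and females (exact two-sided permutation test within agent, p = 0.815). Without Vibrio female replicate 3 these were 0.09 (exact permutation p = 0.06) and -0.03 (exact permutation p = 0.45), so the sign of both was set by that library.

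The ratio of LOC113823946 to LOC113823934, looked at after the values had been seen and given as a description, lay at 2 levels. In FPKM it was 0.181 to 0.218 in 7 libraries: control females 1 to 3, control male replicate 2, Vibrio female replicate 2 and Vibrio males 1 and 3. It was 0.435 in control male replicate 3, 0.525 and 0.422 in Vibrio females 1 and 3, and 0.410 in Vibrio male replicate 2. LOC113823946 thus took 7.51 to 9.18% of the family's FPKM in the first 7 and 13.2 to 19.8% in the other 4. Both levels occurred in control males, Vibrio females and Vibrio males, and the lower alone in control females. The 3 libraries highest in hepatopancreas markers were all at the higher level. Vibrio male replicate 2 reached it with 819 summed CPM of these markers, and control female replicate 2, with 1905, was at the lower level. Their part in the ratio was not tested.

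**Figure D5:**
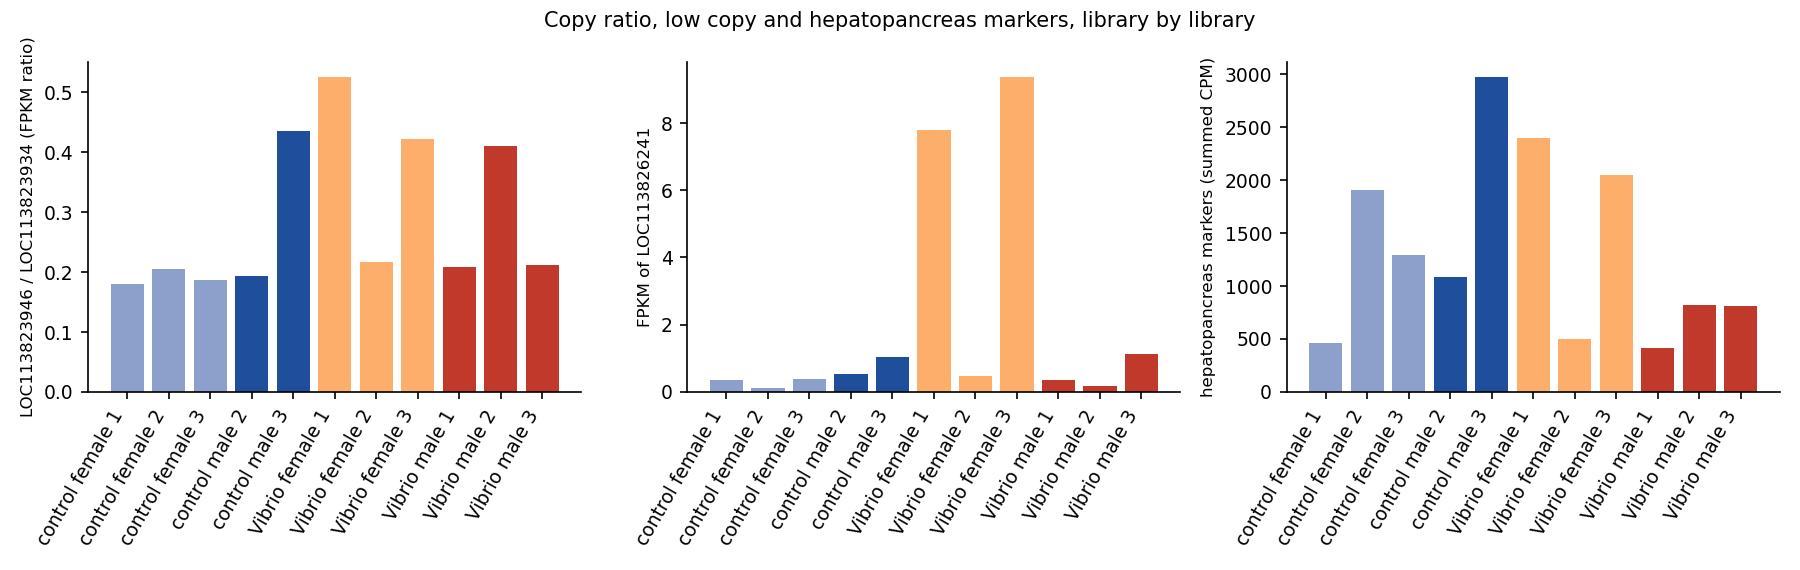
Bars per library for the FPKM ratio of LOC113823946 to LOC113823934 (left), the FPKM of LOC113826241 (middle) and the summed CPM of hepatopancreas markers (right), coloured by group. The ratio is at or above 0.410 in 4 libraries, 3 of which have the highest marker sums, while LOC113826241 reaches 7.78 and 9.36 FPKM in Vibrio females 1 and 3.

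Genes named for clotting, blood formation, and matrix and adhesion were looked at through lists. The clotting list holds clottable proteins, proclotting enzymes, clotting factors and coagulation factors. These were picked by name, and their link to the transglutaminases was not tested. Of 19 clotting genes 11 were tested, with 4 higher and 7 lower with Vibrio in females (median log2 difference -0.32, against 0.05 for all genes) and 7 higher and 3 lower in males (0.16 against -0.03). None was called by edgeR. In controls 10 of 11 were lower in males (median -0.97 against -0.02), also with 0 called. In the same contrast 24 of 27 hemocyte markers (median -0.43), 24 of 37 muscle markers (-0.32) and 46 of 84 hepatopancreas markers (-0.11) were lower in males, and their part in the clotting result was not tested. Proclotting enzyme-like (LOC113814365), a protease named after the horseshoe crab clotting cascade, was the most abundant with 117 to 227 FPKM. Its log2 fold change with Vibrio in females was -0.49 with SE 0.24 (edgeR adjusted p = 0.986).

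The clottable proteins, the plasma proteins that a transglutaminase links, were named for their role after their values had been seen. LOC113819746, flagged low quality, had 15.9, 7.20 and 33.4 FPKM in control females 1 to 3 and 7.93 and 8.08 FPKM in control males 2 and 3. Vibrio females 1 to 3 had 50.4, 13.3 and 29.0 FPKM, and Vibrio males 1 to 3 had 16.6, 6.71 and 7.54 FPKM. Females spanned a wide range in both agents and overlapped, and the log2 fold change with Vibrio in females was 0.64 with SE 0.61 (edgeR adjusted p = 0.986). LOC113819745 had 0.993 to 15.2 FPKM, highest in Vibrio female replicate 1 as well, and LOC113819742 had 6 counts in control female replicate 2 and 0 elsewhere.

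Of 15 hematopoiesis genes 13 were tested and 0 called: 5 were higher and 8 lower with Vibrio in females (median log2 difference -0.28) and 8 higher and 5 lower in males (0.20). Crustacean hematopoietic factor-like protein (LOC113802754), whose relative in crayfish is a survival factor of blood cells, was the most abundant with 2466 to 6650 FPKM. Astakine (LOC113822052), chosen after its values were seen, had 1285 and 1633 FPKM in control females 1 and 3, the same libraries that were highest in LOC113823934 and LOC113823945. It was at 109 FPKM in control female replicate 2 and at 55.5 to 210 FPKM in the other 8 libraries (log2 fold change with Vibrio in females -3.10 with SE 0.85, edgeR adjusted p = 0.986).

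Matrix and adhesion genes, which include transglutaminase substrates in other animals, numbered 63. The most abundant was an integrin beta subunit (LOC113819144), a cell adhesion receptor, with 506 to 957 FPKM. Of 44 tested, 19 were higher and 25 lower with Vibrio in females (median log2 difference -0.08) and 21 higher and 22 lower in males (-0.02). Averaged over the agents 40 of 44 were lower in males (median -0.49, against -0.04 for all genes). Marker lists of cell types had the same direction in this contrast: 20 of 27 hemocyte markers (median -0.41), 74 of 84 hepatopancreas markers (-1.20) and 32 of 37 muscle markers (-0.46) were lower in males, and their part in the matrix result was not tested. None of the matrix and adhesion genes was called by edgeR in any contrast.

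Genes whose profile over the 11 libraries was most like a copy were found by Pearson r of log2 CPM among 6480 other named genes of at least 5 CPM, as a description. For LOC113823934 they were phenoloxidase-activating factor 2-like (LOC113812814, r = 0.979), LON peptidase N-terminal domain and RING finger protein 3-like (LOC113820626, 0.972) and coagulation factor IX-like (LOC113821430, 0.962). Prophenoloxidase activating enzyme (LOC113819328, 0.949), a protease that switches on melanin formation, and rap guanine nucleotide exchange factor 2-like (LOC113802404, 0.939) came next. LOC113823945 shared LOC113820626 (0.959), LOC113812814 (0.957) and LOC113819328 (0.953), and added agrin-like (LOC113820208, 0.966), a matrix proteoglycan, and stAR-related lipid transfer protein 13-like (LOC113813574, 0.943). LOC113823946 had none of these, and its closest was protein EFR3 homolog cmp44E-like (LOC113828281, 0.92). The closest for LOC113826241 was tyrosine-protein kinase Src42A-like (LOC113806269, 0.826). The points share their libraries and their scaling, and LOC113823455, with counts in 4 libraries, was not compared.

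A further gene carries the annotation of transglutaminase activity without the family's name, and was picked for that annotation after its values were seen. It is annulin-like (LOC113811248), named after a transglutaminase-related protein of grasshopper epithelia. It had 7.01, 0.918 and 6.12 FPKM in control females 1 to 3 and 1.00 and 1.94 FPKM in control males 2 and 3. Vibrio females 1 to 3 had 2.78, 1.43 and 1.25 FPKM, and Vibrio males 1 to 3 had 0.552, 0.275 and 1.04 FPKM. Control females 1 and 3 were the high libraries here too. Averaged over the sexes, its log2 fold change with Vibrio was -1.36 with SE 0.53 (edgeR adjusted p = 1), and males against females averaged over the agents gave -1.60 with SE 0.55 (edgeR adjusted p = 0.953).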

How the data were processed

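Total RNA of hemocytes was sequenced on Illumina libraries, per the labels' protocols. The submitters' processing notes name cutadapt 1.9 and FastQC; neither these notes nor the labels or headers name an aligner, a counter or a genome build. The deposited table holds a read count and an FPKM value for each of 18803 genes and library, per the file headers. Levels are the deposited FPKM and tests use the deposited counts as they stand. Depth was 39733829 to 53837438 counts.

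Groups follow the labels for agent and sex. edgeR 4.0.16 (R 4.3.3; TMM, filterByExpr, robust quasi-likelihood fit of 4 group means) tested 7 contrasts over 14295 genes, two-sided, with Benjamini-Hochberg adjustment and a threshold of 0.05. SE is the log2 fold change over the square root of F. Shares and ratios were tested by exact permutation. Correlations took log2 CPM (prior count 2) and 100000 permutations. The edgeR step was also run on simulated counts, drawn independently with a spread that depended on level alone. Such counts hold no outlier libraries, so its power in these data was not measured.

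Alternatives were DESeq2 1.42.0, RLE factors, no low-count filter, a replicate block, leaving out libraries, shares of FPKM and ratios of counts. Named genes were the family, the most abundant member of each list and the 5 genes most like each copy; other genes are said to be chosen after their values were seen. Members, lists and tests were chosen with earlier results of these data known, and some list members were left out by name. Of the gene identifiers, 12909 of 18803 matched the RefSeq table. A control male numbered 1 was not analysed here.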

Additional observations from a re-analysis of the deposited data

How the results depend on the processing

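Depth limits only the lowest copies; with 2 or 3 libraries a group, the spread between libraries limits the others. The number of genes called by edgeR, 0 in all 7 contrasts, moved with DESeq2 to 21 and 11 for Vibrio in females and males, 28 for the difference of these effects, 11 and 13 for sex in controls and with Vibrio, and 6 and 10 for the averaged effects of Vibrio and sex. Without the 3 libraries highest in hepatopancreas markers, which leaves 1 Vibrio female and 1 control male, assumed to vary like the other groups, it was 3, 1, 2, 1 and 1 for the first 5 and 2 for averaged sex. Leaving out each library gave 0 to 1 genes, and 0 to 2 for the averaged effects. The cause was not tested.

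Without those 3 libraries, signs turned for Vibrio in males of LOC113823934 (log2 fold change -0.15) and LOC113823945 (-0.32), for Vibrio of LOC113823946 in females (-0.69) and averaged (-0.24), and for males against females with Vibrio of LOC113823934 (-0.10), LOC113823946 (0.10) and LOC113826241 (0.16; 0.60 averaged over agents). The log2 ratio of LOC113823934 to LOC113823945 turned to 0.0860 for Vibrio and -0.0319 for sex. Males against females with Vibrio gave -0.021 for LOC113823934 with DESeq2 and with RLE factors.

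Leaving out each library turned signs within these ranges. LOC113823934 ran from -0.17 to 0.95 for Vibrio in males and from -0.15 to 0.28 for sex with Vibrio. LOC113823945 ran from -0.56 to 0.027 for averaged Vibrio, from -0.34 to 0.85 for Vibrio in males and from -0.45 to 0.023 for sex with Vibrio. LOC113823946 ran from -0.053 to 0.25 for averaged Vibrio, from -0.26 to 0.34 for Vibrio in females and from -0.18 to 0.42 for the difference of the effects. The log2 ratio ran from -0.0811 to 0.0856 for Vibrio and from -0.0316 to 0.135 for sex. Signs held but sizes moved for LOC113823934 with Vibrio in females (-1.31 to -0.67) and for sex in controls (-1.95 to -0.80), for LOC113823945 for sex in controls (-1.90 to -0.69) and for LOC113826241 for sex with Vibrio (-4.46 to -2.89). The family share kept its sign, from -0.596 to -0.155 percentage points for Vibrio and from -1.01 to -0.569 for sex.

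Whether the replicate numbers pair the libraries could not be settled. Deviations from group means correlated between -0.57 and 0.5 in 15 same-numbered pairs (median 0.02) and between -0.5 and 0.48 in 30 other pairs (0.01). Of 11 libraries 6 correlated best with their own number, and no chance level was computed. Deviations within a group sum to 0, and those of the control males mirror each other, so the check cannot decide. With the replicate block edgeR called 0 genes in every contrast, and LOC113823934 for sex with Vibrio (-0.039) and LOC113823945 for Vibrio in males (-0.027) turned sign.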
